A study of Mus musculus with 12 samples.

Results

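The cytosolic ribosomal protein genes encode the proteins of the 40S and 60S ribosomal subunits. They were taken as all genes whose symbol begins with Rpl or Rps, without the Rps6k kinases, symbols ending in -ps, Rps27l, Rps19bp1, Rpl7l1, Rpl22l1 and Rps27rt, and with a mean value of 10 or more across the 12 libraries. The rule left 80 genes of 12676 with that mean and of 23106 in the table, 33 of the 40S and 47 of the 60S subunit. Of these, 77 are annotated as protein-coding, and Rpl37rt, Rps3a3 and Rps4l as pseudogenes. Another 4 genes matched the symbols but had means under the minimum, 7.23 for Rpl24, 4.71 for Rpl6l, 3.89 for Rps3a2 and 0.467 for Rpl10l.

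Cultured colon fibroblasts of 12-week-old C57BL/6 mice were profiled with 3' tags, so that each read stands for the 3' end of a transcript. The 3 groups of 4 libraries were wild-type cells with the guide sgScr (WT sgScr), Prkcz-/- cells with the same guide (Prkcz-/- sgScr) and Prkcz-/- cells with the guide sgSox2 (Prkcz-/- sgSox2). Prkcz codes for protein kinase C zeta, an atypical member of its family, and Sox2 for a pluripotency transcription factor. All cells were untreated, grown in 10% serum and harvested 24 h after plating, and all carried a guide. The replicates are called biological, but whether they were separate animals, clones or cultures is not stated, so the spread behind each p-value is that of these libraries and may be technical. Sox2 had 0, 3.61, 0 and 3.29 normalised reads in WT sgScr, 1293, 1306, 1330.03 and 1459 in Prkcz-/- sgScr and 0 in all 4 Prkcz-/- sgSox2 libraries. Prkcz had 0 reads in WT sgScr and 32 and 54 reads over the 4 libraries of Prkcz-/- sgScr and Prkcz-/- sgSox2. The sources used here do not give the deleted part of Prkcz, so a 3' tag outside it checks nothing, and each direction below is between libraries as labelled.

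A ribosome is built from ribosomal RNA and about equal amounts of each ribosomal protein, so these genes are usually transcribed at high and coordinated levels. Their messenger RNAs begin with a run of pyrimidines, the 5' terminal oligopyrimidine (TOP) sequence, through which the kinase complex mTORC1 and the protein LARP1 control their translation and stability. Ribosome output follows growth and proliferation, and the transcription factor MYC is known to raise ribosomal protein and ribosome biogenesis genes in many cell types.

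Libraries held 2.67 to 5.20 M reads, so that 1 read was worth 1.92 to 3.75 normalised reads (a gene's reads scaled to 10000000 per library). Summed levels of 9 fibroblast markers were 42881 to 46665 normalised reads in WT sgScr, 96031 to 98246 in Prkcz-/- sgScr and 50959 to 57482 in Prkcz-/- sgSox2, where Lum was at 0. The sum was highest in Prkcz-/- sgScr, but of the 8 markers tested 5 rose and 3 fell in Prkcz-/- sgScr against WT sgScr. Epithelial markers summed to 36.1 to 59.1 in WT sgScr, 0 to 6.26 in Prkcz-/- sgScr and 0 to 9.61 in Prkcz-/- sgSox2. Endothelial markers summed to 23.9 to 42.7, 19.4 to 26.2 and 88.4 to 114 in that order, those of enteric glia and neurons to 22.7 to 52.6, 14.2 to 37.6 and 76.9 to 131, smooth muscle markers to 105 to 132, 81.3 to 128 and 9.61 to 14.99, and those of interstitial cells of Cajal to 98.6 to 173, 3.13 to 11.7 and 0 to 4.94, with Kit at 0 throughout. Immune markers summed to 22.998 to 32.5, 15.6 to 25.9 and 29.98 to 49.99. The 4 mesothelial markers summed to 1042 to 1174 in WT sgScr, 3.13 to 16.2 in Prkcz-/- sgScr and 284 to 479 in Prkcz-/- sgSox2. In WT sgScr and Prkcz-/- sgSox2 all of this was Msln, since Upk3b, Wt1 and Lrrn4 were at 0. The part of these marker lists in the results was not tested. In bulk libraries, fewer cells of a type and less RNA per cell cannot be told apart.

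The family as a whole took a smaller share of reads in Prkcz-/- sgScr than in either other group. Ribosomal protein genes held 3.91, 3.86, 3.78 and 3.93% of reads in the 4 WT sgScr libraries, 2.25, 2.18, 2.14 and 2.38% in Prkcz-/- sgScr, and 5.67, 4.11, 4.17 and 4.30% in Prkcz-/- sgSox2. The 3 groups did not overlap, and replicate 1 of Prkcz-/- sgSox2 stood above the rest of its group. Without it the Prkcz-/- sgSox2 share was 4.20% ± 0.100 (SD, n = 3). The 95% Wilson interval of each share, which covers counting error only, was at most 0.0240 percentage points to either side. Replicate 1 of Prkcz-/- sgSox2 also had 4.29% of reads in mitochondrial genes against 9.39 to 10.3% in the other 3 libraries of its group, 10.5 to 10.7% in WT sgScr and 10.5 to 11.6% in Prkcz-/- sgScr. With mitochondrial genes and Gm42418 (a locus overlapping ribosomal RNA repeats) left out of the total, the shares were 4.45 to 4.59% in WT sgScr, 2.51 to 2.79% in Prkcz-/- sgScr and 4.71 to 6.12% in Prkcz-/- sgSox2, in the same order and without overlap. The 6.12% was that of replicate 1 of Prkcz-/- sgSox2, and the rest of its group had 4.71 to 4.87%. Malat1, a nuclear noncoding RNA, took at least 1.36% of reads in Prkcz-/- sgScr and 0.321 to 0.610% in the other groups, so it moved in the opposite direction, and its part in the result was not tested.

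The reads of 60S genes exceeded those of 40S genes 1.07 to 1.08-fold in WT sgScr and 1.07 to 1.09-fold in Prkcz-/- sgScr. The ratio in Prkcz-/- sgSox2 was 1.19, 1.15, 1.16 and 1.14, above all 8 libraries of the other groups. The ratios of Prkcz-/- sgScr overlapped those of WT sgScr. Median log2 changes over protein-coding genes in Prkcz-/- sgSox2 were 0.08 (40S) and 0.10 (60S) against WT sgScr. Against Prkcz-/- sgScr they were 1.11 and 1.08. The ratio weights genes by their reads, so it does not show a shift shared by all 60S genes.

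**Figure D1:**
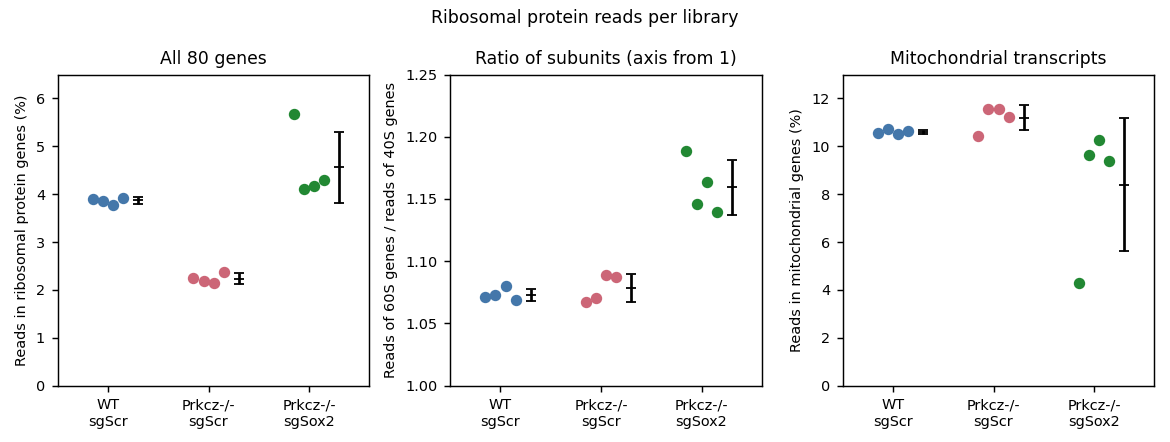
Percent of reads in the 80 ribosomal protein genes, ratio of 60S to 40S reads (axis from 1) and percent of reads in mitochondrial genes, per library, with the mean and SD of each group beside the 4 points. The ribosomal protein share lies at 2.14 to 2.38% in Prkcz-/- sgScr, below every other library, and Prkcz-/- sgSox2 replicate 1 stands apart in the first and last panels.

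In Prkcz-/- sgScr against WT sgScr, the comparison of the knockout with wild type under the same guide, ribosomal protein genes of both subunits were lower almost throughout. Of the 80 genes, 75 fell and 1, the pseudogene Rps4l, rose (limma adjusted p under 0.05), where 29.4% of all genes tested fell and 37.6% rose. At least 2-fold lower were 39 genes, where 13.2% of all genes were. The values of 74 genes lay lower in all 4 Prkcz-/- sgScr libraries than in any WT sgScr library and those of 1 gene, Rps4l, higher, where 29.2% and 36.8% of all genes did. The median log2 change was -0.96 over the 80 genes and -1.02 over the 77 protein-coding ones, a 2.03-fold drop, whereas the median over all genes was 0.12. The 5 genes whose values overlapped between the groups were Rpl31, Rpl37rt, Rpl7, Rps20 and Rps3a3.

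Among 40S genes the greatest drop was that of Rps2, a protein at the messenger RNA entry of the small subunit (ENSMUSG00000044533, chr17:24718116-24721929, GRCm38). Its levels were 7568, 7886, 8248 and 7872 normalised reads in the WT sgScr libraries, 1852, 1507, 1693 and 1094 in Prkcz-/- sgScr and 6559.8, 7104, 4332 and 3794 in Prkcz-/- sgSox2. All Prkcz-/- sgScr values lay far below both other groups, and all those of Prkcz-/- sgSox2 lay below WT sgScr, with replicates 3 and 4 the lowest of that group. The log2 change was -2.39 ± 0.18 (SE), limma adjusted p = 5.2e-09, or 5.23-fold lower. Rps2 overlaps the genes Snora78 and Snhg9 on the other strand, so its reads are certain only if the counting used the strand, which is not stated.

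Rps23, a protein of the decoding centre, went from 1191 ± 33.1 to 319 ± 53.7 normalised reads (SD, n = 4 each), a log2 change of -1.91 ± 0.17 (SE). Rps18, of the head of the subunit, went from 3672 ± 269 to 972 ± 187, a log2 change of -1.93 ± 0.19. Rps27a, which encodes ubiquitin fused to a ribosomal protein, went from 5617 ± 321 to 1573 ± 154 and had the smallest adjusted p of all falling members (5.1e-11, limma). For each of these genes the values of Prkcz-/- sgScr and WT sgScr did not overlap.

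Rps6, the protein phosphorylated by S6 kinase downstream of mTORC1, had the lowest mean count of the protein-coding members. The aligner and annotation are not given, and whether its transcripts are scarce or its reads were lost was not tested. Rps6 had 64.9, 72.2, 89.8 and 59.1 normalised reads in the WT sgScr libraries, 22.4, 17.5, 21.9 and 12.9 in Prkcz-/- sgScr and 24.99, 75.7, 78.7 and 29.6 in Prkcz-/- sgSox2. The Prkcz-/- sgScr libraries were all lowest, and Prkcz-/- sgSox2 was split between 2 libraries near WT sgScr and 2 lower ones. Its log2 change was -1.89 ± 0.36 (SE), limma adjusted p = 0.00019, with a 95% interval of -2.65 to -1.13. Other 40S genes fell less. The log2 change was -1.16 for Rpsa, also known as the laminin receptor, -0.70 for Rps3, at the messenger RNA entry, -0.59 for Rps14 and -0.48 for Rps19. In humans, variants of RPS19 cause Diamond-Blackfan anaemia, and loss of a copy of RPS14 contributes to the anaemia of the 5q- syndrome.

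Among 60S genes Rpl7a fell most, with 1942, 2131, 1993 and 1938 normalised reads in the WT sgScr libraries, 618, 510.3, 613 and 269 in Prkcz-/- sgScr and 2499, 2261, 1439 and 1413 in Prkcz-/- sgSox2. Every Prkcz-/- sgScr value was below every other one, and replicate 4 was the lowest. The log2 change was -2.06 ± 0.23 (SE), limma adjusted p = 5.3e-07. Rpl5 and Rpl11, which bind 5S ribosomal RNA and, outside the ribosome, the p53 regulator MDM2, did not fall equally. Rpl5 had 2240.3, 2221, 2221 and 2257 normalised reads in the WT sgScr libraries, 709, 539, 617 and 582 in Prkcz-/- sgScr and 2346, 1981, 1660.1 and 1736 in Prkcz-/- sgSox2, with Prkcz-/- sgScr far below the rest, and changed by -1.87 ± 0.11. Rpl11 went from 4309 ± 232 to 2328 ± 213 (SD, n = 4 each), a log2 change of -0.89 ± 0.13. Rpl5 overlaps Fam69a on the other strand.

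The proteins of the stalk that recruits elongation factors fell by similar amounts. Rplp0, its base, had 7614, 7005, 6923 and 6919 normalised reads in the WT sgScr libraries, 3553, 3219, 3549 and 3689 in Prkcz-/- sgScr and 11345, 7685, 7229 and 8054 in Prkcz-/- sgSox2. The Prkcz-/- sgScr values lay far below the WT sgScr ones, without overlap, and replicate 1 of Prkcz-/- sgSox2 was the highest of all. The log2 changes were -1.02 ± 0.11 for Rplp0, -0.97 ± 0.12 for Rplp1 and -1.10 ± 0.14 for Rplp2. Rpl4, of the peptide exit tunnel, changed by -1.43 ± 0.09, Rpl10, which is added late in 60S assembly, by -1.41 ± 0.17, and Rpl3, near the peptidyl transferase centre, by -0.78 ± 0.10 (SE). The small proteins Rpl39 and Rpl41 changed by -1.11 ± 0.12 and -1.15 ± 0.09. Rpl22 and Rpl13a, both known for roles outside the ribosome, changed by -0.56 ± 0.09 and -0.45 ± 0.11.

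Rps20, of the head of the 40S subunit, and Rpl31, at the rim of the exit tunnel, were the 2 protein-coding members that did not pass the test. Rps20, which had the highest mean of all members, had 16130.5, 16315, 15719 and 17255 normalised reads in the WT sgScr libraries, 16737, 17711, 16427 and 20742 in Prkcz-/- sgScr and 27268, 18836, 23058 and 22698 in Prkcz-/- sgSox2. The WT sgScr and Prkcz-/- sgScr values overlapped, and those of Prkcz-/- sgSox2 were above all WT sgScr ones. Its log2 change between Prkcz-/- sgScr and WT sgScr was 0.13, with a 95% interval of -0.10 to 0.35 (limma adjusted p = 0.32). Rpl31 had 6461, 6576, 6219 and 6692 normalised reads in the WT sgScr libraries, 6208, 6432, 6015 and 7676 in Prkcz-/- sgScr and 9455, 6587, 8451 and 8306 in Prkcz-/- sgSox2, overlapping in all 3 groups, with a change of 0.02 and an interval of -0.20 to 0.23 (limma adjusted p = 0.91). Rpl7 (-0.25) and Rpl37a (-0.38) had small drops that passed it.

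**Figure D2:**
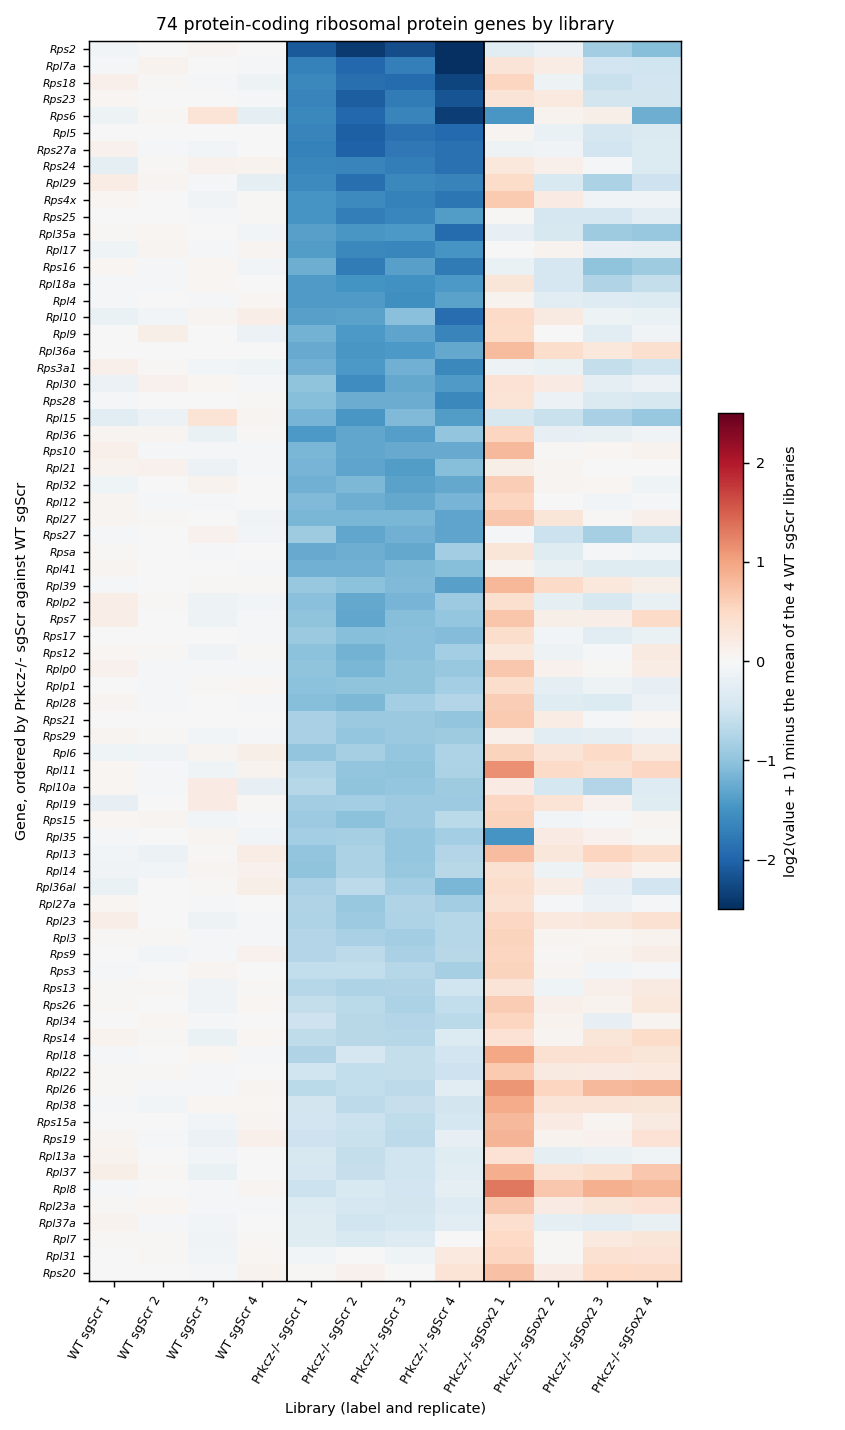
Log2(value + 1) of 74 of the 77 protein-coding members in each of the 12 libraries, minus the mean of the 4 WT sgScr libraries, with genes ordered by the change in Prkcz-/- sgScr and colours saturated at the ends of the scale. The 4 Prkcz-/- sgScr columns are blue for nearly all genes and fade towards Rpl7, Rpl31 and Rps20 at the foot, and the column of Prkcz-/- sgSox2 replicate 1 is the reddest of its group, with Rpl35 and Rps6 low.

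In Prkcz-/- sgSox2 against Prkcz-/- sgScr, the comparison of the 2 guides in cells labelled Prkcz-/-, ribosomal protein genes were higher almost throughout. Of the 80 genes 77 rose and 1, Rps4l, fell, where 30.5% of all genes rose and 30.2% fell. At least 2-fold higher were 47, where 11.1% of all genes were, and 74 had every Prkcz-/- sgSox2 value above every Prkcz-/- sgScr value, where 26.0% of all genes did. The median log2 change was 1.06 against -0.01 over all genes. Without replicate 1 of Prkcz-/- sgSox2 the counts were the same, 77 and 1, and the median was 0.94. Of all 12676 genes 3815 rose and 4001 fell without it. This comparison shares the 4 Prkcz-/- sgScr libraries with the one above, so opposite changes of a gene in the 2 comparisons are not independent of each other.

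The greatest increases were those of Rpl7a (1.94 ± 0.23, SE), Rps23 (1.83 ± 0.17), Rpl36a (1.83 ± 0.10), Rps4x (1.81 ± 0.14) and Rps2 (1.80 ± 0.18), from 3.49 to 3.85-fold. Stalk proteins rose by 1.27 (Rplp0), 0.95 (Rplp1) and 0.99 (Rplp2), Rpl5 by 1.65, Rpl11 by 1.52 and Rps6 by 1.29 (limma adjusted p = 0.0054). The smallest called increases were those of Rpl31 (0.31), Rpl37a (0.31), Rps20 (0.35) and Rpl13a (0.42).

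Rpl35, of the 60S subunit, was 1 of the 2 genes that did not pass the test. It had 571, 589, 614 and 555 normalised reads in the WT sgScr libraries, 323, 327, 297 and 324 in Prkcz-/- sgScr and 208, 674, 626 and 590.3 in Prkcz-/- sgSox2. Replicate 1 of Prkcz-/- sgSox2 was below all Prkcz-/- sgScr libraries and the other 3 were above them, so the groups overlapped through that library. Its log2 change was 0.59 ± 0.26 (SE), limma adjusted p = 0.06. The other was the pseudogene Rps3a3, with a change of 0.58 (limma adjusted p = 0.30).

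In Prkcz-/- sgSox2 against WT sgScr the members parted, some higher and some lower, and 0 by 2-fold, where 10.7% of all genes were at least 2-fold higher and 8.30% lower. Of the 80 genes 25 rose and 9 fell, where 30.1% of all genes rose and 22.0% fell, so the share that rose was near the background and the share that fell was below it. Every Prkcz-/- sgSox2 value was above WT sgScr for 18 genes and below it for 7, where 27.0% and 19.6% of all genes were. The median log2 change was 0.09, against 0.08 over all genes. Replicate 1 of Prkcz-/- sgSox2 bears on these values, since without it 21 genes rose, 23 fell and the median was -0.01. Of all 12676 genes 3739 rose and 2983 fell without it, against 3813 and 2783 with it. Under TMM scaling 15 fell, and with DESeq2 on recovered reads 16 rose and 14 fell. Over all genes 3272 fell under TMM scaling, and 2958 rose and 3230 fell with DESeq2.

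Rpl8, of the peptidyl transferase region, rose most, with 8793, 9219, 9012 and 9567 normalised reads in the WT sgScr libraries, 6328, 7016, 6572 and 7724 in Prkcz-/- sgScr and 22736, 14519, 16965 and 16306 in Prkcz-/- sgSox2. The 3 groups did not overlap, Prkcz-/- sgScr being lowest and Prkcz-/- sgSox2 highest. The log2 change against WT sgScr was 0.93 ± 0.11 (SE), limma adjusted p = 3.9e-06, and 0.80 without replicate 1 (limma adjusted p = 1.1e-07). Rpl26, at the exit tunnel, rose by 0.82 (0.72 without that library) and Rpl11 by 0.63 (0.46). These 3 genes were above every WT sgScr value in all 4 Prkcz-/- sgSox2 libraries.

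On the other side Rpl15, of the 60S subunit, fell most, with 604, 661, 931 and 766 normalised reads in the WT sgScr libraries, 325, 265, 338 and 275 in Prkcz-/- sgScr and 554, 494, 416 and 380.3 in Prkcz-/- sgSox2. Its Prkcz-/- sgSox2 values lay between the other groups and overlapped neither. The log2 change was -0.68 ± 0.15 (SE), limma adjusted p = 0.001, and -0.77 without replicate 1. Rps16, which overlaps the noncoding gene AF357399 on its strand, changed by -0.62 (-0.77 without it), Rpl35a by -0.61 (-0.74), Rps2 by -0.58 (-0.69) and Rps27 by -0.50 (-0.65). Rps6 had a change of -0.61 that did not pass the test (limma adjusted p = 0.17). Genes such as Rpl4 (-0.21), Rpl5 (-0.22), Rplp1 (-0.02) and Rplp2 (-0.11) passed it only without replicate 1, at -0.32, -0.32, -0.18 and -0.28.

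**Figure D3:**
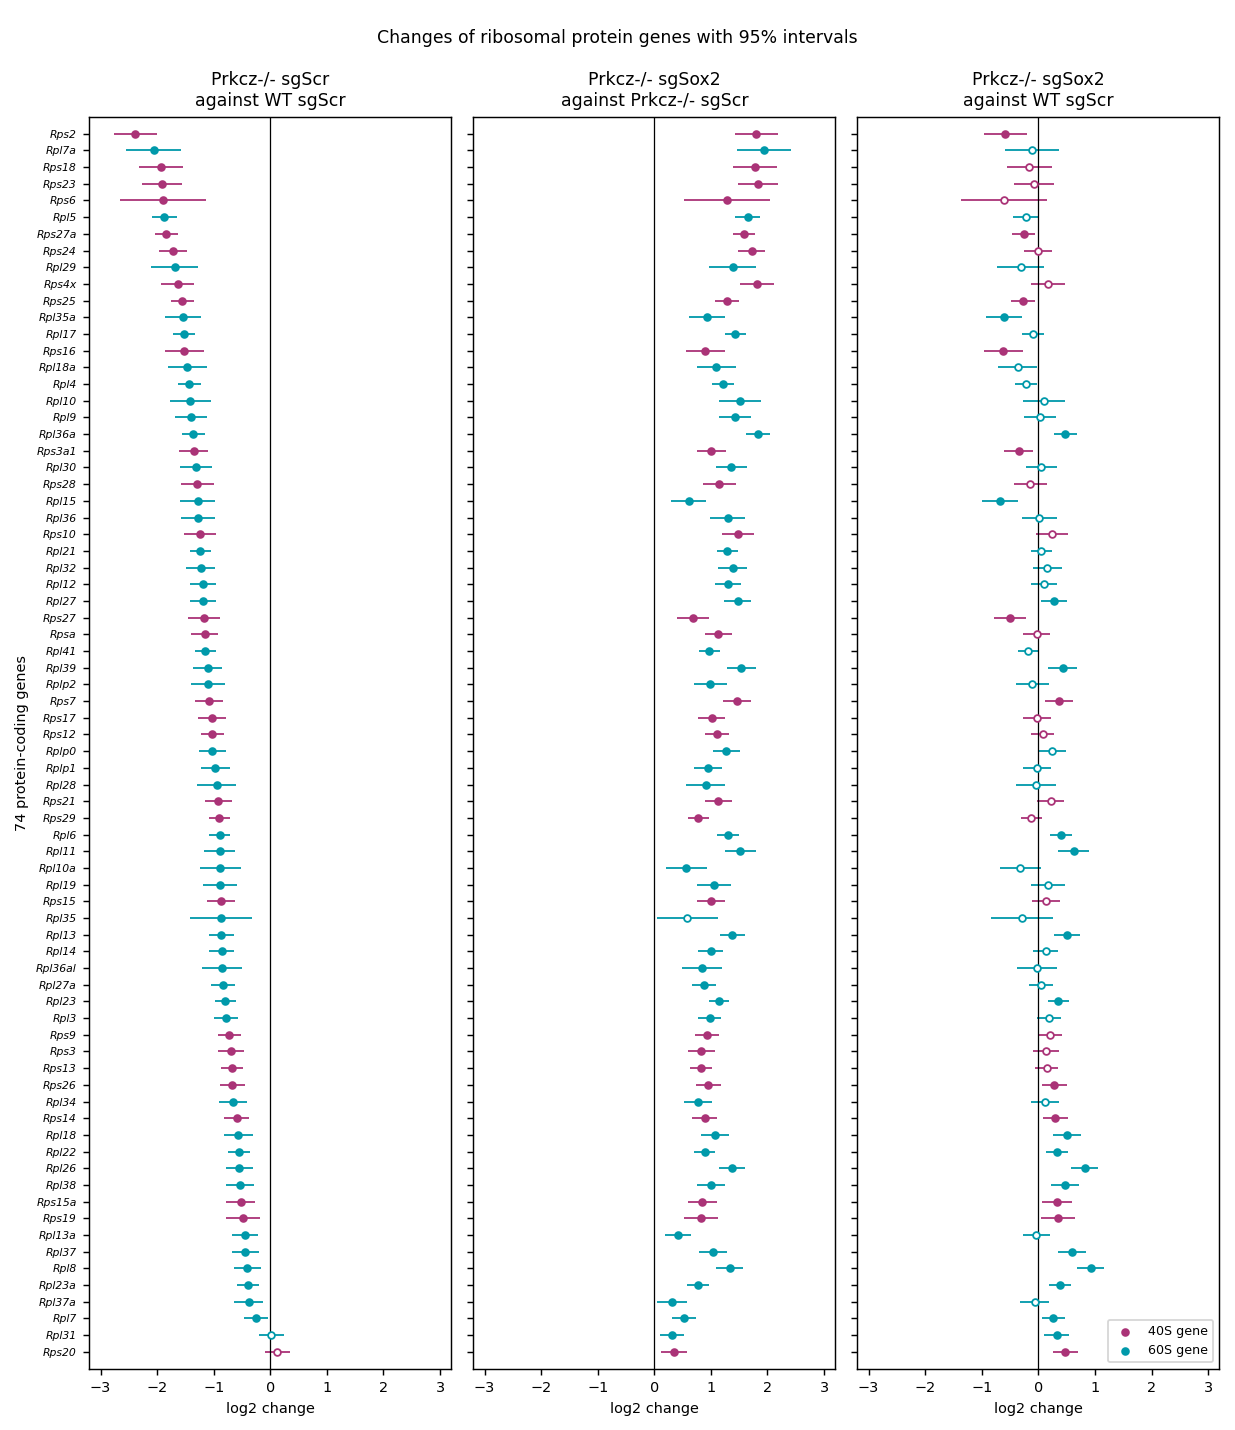
Log2 change of 74 of the 77 protein-coding members in the 3 comparisons, with 95% intervals. Filled points passed the test (limma adjusted p under 0.05), and colours mark 40S and 60S genes. In the first panel all points lie left of 0 except Rpl31 and Rps20, in the second all lie right of it, and in the third they lie on both sides, from -0.68 for Rpl15 to 0.93 for Rpl8.

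Members also departed from the family. For this, each library's family level (the median over members of their deviations from their own means) was subtracted and the fit repeated. Since that level is a median of the members themselves, members lie on both sides of it by construction. The balance between the counts above and below is therefore not a result. In Prkcz-/- sgScr against WT sgScr 25 genes lay above the family and 28 below it, among backgrounds of 75.1% and 7.20% of all genes that follow from the drop of the family itself. The departures above it with the smallest adjusted p among protein-coding genes were those of Rps20 (1.11), Rpl31 (1.00) and Rpl7 (0.73). Those below it were Rpl5 (-0.89), Rps27a (-0.85), Rps2 (-1.40) and Rps25 (-0.57).

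Between Prkcz-/- sgSox2 and Prkcz-/- sgScr 25 genes lay above the family and 19 below it (backgrounds 4.77% and 79.3%), led by Rpl36a (0.74), Rps4x (0.72), Rpl5 (0.56) and Rps24 (0.63) above it and by Rpl37a (-0.78), Rpl13a (-0.67) and Rpl31 (-0.78) below it. With the median of the members' levels as the family level, these counts were 13 and 33, among 460 and 10592 of all 12676 genes. Against WT sgScr, 18 genes of Prkcz-/- sgSox2 lay above and 16 below (backgrounds 24.1% and 23.9%), led by Rpl8 (0.82), Rpl26 (0.72) and Rpl11 (0.52) above it and Rps27 (-0.60), Rpl15 (-0.78), Rps16 (-0.72) and Rpl35a (-0.72) below it. With the median of levels 8 lay above, among 2347 of all genes, and with only the 2 groups compared 11 did, among 2816. Without replicate 1 of Prkcz-/- sgSox2 22 lay above and 23 below, among 3782 and 2860 of all genes.

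Over the 12 libraries the 2926 pairs of protein-coding members had a median Pearson correlation of 0.90 on the log2 scale, with 5% of pairs under 0.43 and the lowest at -0.31. The points of these correlations share the group differences and the depth scaling of each library, and they are given as a description.

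Across the 77 protein-coding genes, members with lower counts tended to fall more. A 3' tag counts 1 read per transcript end, so levels were not divided by length. The log2 change in Prkcz-/- sgScr against WT sgScr correlated with the log2 mean level at r = 0.50 (Spearman's rho 0.55), that in Prkcz-/- sgSox2 against WT sgScr at r = 0.58 (rho 0.58), and that in Prkcz-/- sgSox2 against Prkcz-/- sgScr at r = -0.14 (rho -0.17). The level includes the libraries compared, genes are not independent replicates, and all points share the same libraries. Correlations of the first change with transcript length (r = 0.16), coding length (-0.17) and 3' untranslated length (0.21) were weaker.

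**Figure D4:**
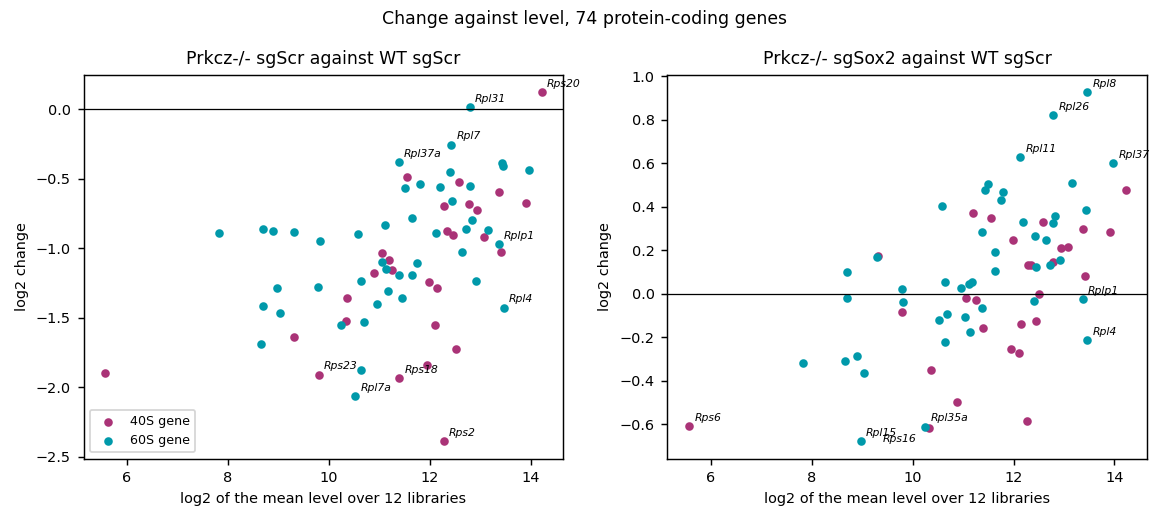
Log2 change against the log2 of the mean level over the 12 libraries for 74 of the 77 protein-coding members, in Prkcz-/- sgScr (left) and Prkcz-/- sgSox2 (right) against WT sgScr. Points rise from lower left to upper right in both panels (r = 0.50 and 0.58 over all 77).

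Median log2 changes in Prkcz-/- sgScr against WT sgScr were -1.09 for the 31 protein-coding 40S genes and -0.92 for the 46 60S genes, with SDs over genes of 0.58 and 0.44. The 30 genes with a small nucleolar RNA gene inside them had a median of -1.13 and the 47 without one -0.92. The 4 X-linked genes Rpl10, Rpl36a, Rpl39 and Rps4x had a median of -1.39, and of 1.67 in Prkcz-/- sgSox2 against Prkcz-/- sgScr. Pseudogene copies can take or give reads: the 21 genes with 5 or more named pseudogenes had a median of -1.24 and the 18 with none -0.83. When the reads of named pseudogene rows were added to their parent members, 75 genes were still lower and 1 higher. All 207 such rows held only 0.0182 to 0.0439% of reads per library, so adding them could change little. Reads lost or placed on other copies are not covered by it. The SD over all 77 genes was 0.51, and no set was tested against another.

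Promoters were examined because the members moved together. RefSeq promoter sequences (GRCm38.p6, 250 bases before to 50 after a start) matched 58 of the 80 members, 57 of them protein-coding. A run of 8 or more pyrimidines that begins with C, within 50 bases of the start on the transcript strand, was found in 49 of the 57 genes (86.0%) and in 32.0% of 27025 genes in the promoter table. Shares of all genes in this paragraph are of these 27025 and not of the 12676 tested. A gene counted if any of its RefSeq starts had a match, and numbers of starts per gene were not compared. On the other strand the shares were 21.1% and 34.4%. Windows from 30 bases before to 20 after the start are shown for the 4 matched genes that fell most (Rps2, Rpl7a, Rps18 and Rps23), the 4 that changed least (Rpl13a, Rpl37, Rpl37a and Rpl31), and for Rpl4 and Rps6. Starts are those of RefSeq, within 50 bases of the GENCODE gene start for 36 of the 57 genes and farther from it for 21. The RefSeq start lies 1947 bases inside the GENCODE gene for Rps2, 336 for Rps18 and 164 for Rps23, 9 to 45 inside it for Rpl7a, Rpl13a, Rpl31, Rpl4 and Rps6, and 32 and 30 bases before it for Rpl37 and Rpl37a, whose windows end before the GENCODE gene begins. Capitals mark the longest pyrimidine run in the window that begins with C.
Rps2 (chr17:24720033-24720082, plus strand): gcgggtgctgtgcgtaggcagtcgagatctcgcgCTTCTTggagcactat
Rpl7a (chr2:26910777-26910826, plus strand): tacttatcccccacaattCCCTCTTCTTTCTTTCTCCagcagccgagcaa
Rps18 (chr17:33955646-33955695, minus strand): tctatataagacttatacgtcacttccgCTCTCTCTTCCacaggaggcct
Rps23 (chr13:90923092-90923141, plus strand): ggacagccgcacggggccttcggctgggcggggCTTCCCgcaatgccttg
Rpl13a (chr7:45128726-45128775, minus strand): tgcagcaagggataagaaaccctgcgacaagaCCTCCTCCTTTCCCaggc
Rpl37 (chr15:5116583-5116632, plus strand): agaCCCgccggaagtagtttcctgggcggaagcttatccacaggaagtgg
Rpl37a (chr1:72711230-72711279, plus strand): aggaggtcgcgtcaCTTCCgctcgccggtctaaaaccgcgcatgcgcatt
Rpl31 (chr1:39367821-39367870, plus strand): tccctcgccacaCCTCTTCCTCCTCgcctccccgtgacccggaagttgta
Rpl4 (chr9:64173357-64173406, plus strand): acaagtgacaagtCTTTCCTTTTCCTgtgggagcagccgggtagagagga
Rps6 (chr4:86857348-86857397, minus strand): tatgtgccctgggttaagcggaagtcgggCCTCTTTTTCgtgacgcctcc
The marked run is 3 bases long in Rpl37, 5 in Rpl37a, 6 in Rps2 and Rps23, 10 in Rps6, 11 in Rps18, 13 in Rpl4 and Rpl31, 14 in Rpl13a and 19 in Rpl7a. These lengths depend on the RefSeq start chosen, and nothing is read from them. The 49 genes with a run of 8 or more had a median log2 change of -0.95 (range -2.39 to 0.02) in Prkcz-/- sgScr against WT sgScr, and the 8 without one -1.09 (-1.64 to -0.68). The 49 were found within 50 bases of any RefSeq start of the gene, a wider search than the windows shown. They therefore include Rps2, Rps23, Rpl37 and Rpl37a, whose marked runs are shorter. The motif CTCTTTC occurred within 50 bases of the start in 12 genes (21.1%) on the transcript strand, against 1.62% of all genes, and it overlaps the pyrimidine run wherever the run contains it. The motif CCGGAAG, searched on either strand of the whole 300 bases, occurred in 24 genes (42.1%) against 9.93% of all. A match of letters is a description and not a binding site.

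Rps4l, a transcribed processed pseudogene (ENSMUSG00000063171, chr6:148354656-148355598, plus strand, GRCm38), was the only member called in the direction opposite to the family in both comparisons with Prkcz-/- sgScr. It had 0 reads in all WT sgScr and Prkcz-/- sgSox2 libraries and 386, 405, 354 and 437 normalised reads in Prkcz-/- sgScr (577 reads in all). Only the Prkcz-/- sgScr group thus carried it past the minimum level. It was at least 161-fold higher there than in WT sgScr and at least 216-fold higher than in Prkcz-/- sgSox2, against a floor of 3 reads over a group. Its X-linked parent Rps4x (chrX:102184941-102189394, minus strand), a protein of the 40S body, had 799, 773, 730.3 and 785 normalised reads in the WT sgScr libraries, 276, 257, 238 and 220.04 in Prkcz-/- sgScr and 1217, 888, 723 and 729 in Prkcz-/- sgSox2. Rps4x was lowest in Prkcz-/- sgScr, without overlap, the group in which Rps4l was detected.

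The pseudogene lies on the opposite strand within Tmtc1, a transmembrane protein gene on the minus strand, whose values were 0, 0, 2.99 and 0 in WT sgScr, 48.8, 52.5, 46.9 and 32.4 in Prkcz-/- sgScr and 7.69, 4.45, 0 and 7.41 in Prkcz-/- sgSox2. Tmtc1 thus was higher in Prkcz-/- sgScr too, at a lower level than Rps4l. The sources used here do not say whether the counting used the strand, so reads of the 2 genes cannot be told apart. Aligned over 925 bases, the GENCODE transcripts of Rps4x and Rps4l were 77.2% identical. Identity was 80.1% over the coding stretch of Rps4x, 78.5% over its last 200 bases and 63.8% over its last 75. How far from the transcript end the 3' tags fell was not examined. The 60-base coding stretch that differs most is shown with the 20 differing bases in capitals, bases 569 to 628 of the Rps4x transcript and 529 to 588 of that of Rps4l.
Rps4x: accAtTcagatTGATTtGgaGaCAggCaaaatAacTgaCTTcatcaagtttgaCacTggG
Rps4l: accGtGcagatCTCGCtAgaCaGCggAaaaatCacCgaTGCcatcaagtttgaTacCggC

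**Figure D5:**
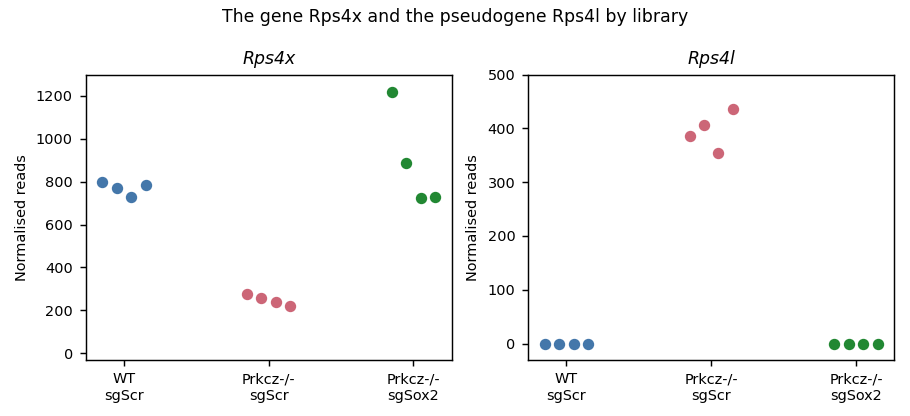
Normalised reads of Rps4x and Rps4l in each library, 4 points per group. Rps4x is lowest in Prkcz-/- sgScr (220 to 276) and Rps4l is above 0 in that group alone (354 to 437).

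The other members annotated as pseudogenes were low. Rps3a3 had 17.5 ± 8.55, 11.03 ± 4.73 and 17.1 ± 8.05 normalised reads (SD, n = 4) in the order WT sgScr, Prkcz-/- sgScr and Prkcz-/- sgSox2, and lies within Pde4d on the same strand. Rpl37rt had 93.7 ± 23.7, 69.1 ± 14.6 and 146 ± 41.8. Rpl37rt rose in Prkcz-/- sgSox2 against Prkcz-/- sgScr (1.05 ± 0.24, SE) and did not pass the test in Prkcz-/- sgScr against WT sgScr (-0.43, limma adjusted p = 0.12).

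Ribosomal proteins under other symbols moved in the same directions. Fau, a ubiquitin-like fusion, and Rack1, a scaffold of the 40S head, both fell in Prkcz-/- sgScr against WT sgScr (-0.44 and -0.45) and both rose in Prkcz-/- sgSox2 against Prkcz-/- sgScr (1.12 and 1.01) and against WT sgScr (0.68 and 0.56). Rack1 went from 13608 ± 615 in WT sgScr to 9979 ± 524 and 20195 ± 2581 (SD, n = 4). Of 5 tested paralogs and retained copies, Rpl22l1, the paralog of Rpl22, changed by -1.21, Rpl7l1 by -0.64 and Rps27l, a p53-responsive paralog of Rps27, by -0.39 on the log2 scale, and all 3 passed the test. Rps4l rose, and Rps27rt did not pass the test (-0.07). Between Prkcz-/- sgSox2 and Prkcz-/- sgScr 4 of the 5 rose and Rps4l fell.

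The wider translation machinery was examined with lists of its parts, to be read against the shares of all genes tested: 37.6% rose and 29.4% fell in Prkcz-/- sgScr against WT sgScr, 30.5% and 30.2% in Prkcz-/- sgSox2 against Prkcz-/- sgScr, and 30.1% and 22.0% in Prkcz-/- sgSox2 against WT sgScr. Of 44 ribosome biogenesis genes, which process and assemble ribosomal RNA and its proteins, 41 fell and 0 rose in Prkcz-/- sgScr against WT sgScr, with a median log2 change of -1.04 against 0.12 over all genes. Dkc1, the pseudouridine synthase of box H/ACA particles, changed by -1.69 ± 0.08 (SE), Rpf2, which places 5S ribosomal RNA, by -1.60 ± 0.08, and Utp4, of the small subunit processome, by -1.92 ± 0.10. With the Sox2 guide, against Prkcz-/- sgScr, 35 rose and 0 fell (median 0.80), among them Ncl, or nucleolin (1.03), and Bop1 (1.29). Against WT sgScr 25 were still lower and 6 higher in Prkcz-/- sgSox2 (median -0.37), with Utp4 at -1.15 and Rpf2 at -0.77. Without replicate 1 these counts were 24 and 5.

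RNA polymerase I and its factors, which make ribosomal RNA, fell in 12 of 15 genes and rose in 1 in Prkcz-/- sgScr against WT sgScr (median -0.49), where 29.4% of all genes fell and 37.6% rose. Tcof1, or treacle, changed by -1.12 and Taf1d, of the promoter complex, by -1.62, whereas Taf1a, of the same complex, rose by 0.42. Under quantile and TMM scaling, and with edgeR and DESeq2, 0 genes of the list rose, so this call was lost. Between Prkcz-/- sgSox2 and Prkcz-/- sgScr 7 rose and 1 fell (0.49; all genes 30.5% and 30.2%), and against WT sgScr 0 rose and 5 fell (-0.13; all genes 30.1% and 22.0%).

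Initiation factors fell in 25 of 30 genes and rose in 1, Eif3c (median -0.84), with Eif5, Eif1a and Eif1ax, of start codon selection, at -1.55, -1.42 and -1.24. Higher in Prkcz-/- sgSox2 than in Prkcz-/- sgScr were 27, and lower 2 (0.81). Against WT sgScr 8 rose and 8 fell (0.09), shares near the 30.1% and 22.0% of all genes. Of 18 elongation factors and other TOP messenger RNAs 11 fell and 2 rose (-0.62), then 14 rose and 0 fell (0.82), then 8 rose and 3 fell (0.22), in the same order of comparisons. Tpt1, the abundant TOP transcript of TCTP, changed by -2.06, Npm1, a nucleolar chaperone, by -1.36, while the eIF3 subunits Eif3e and Eif3k rose by 0.25 and 0.30. These calls depended on the setting, since 1 gene of the list rose under TMM scaling and with edgeR, and 0 with DESeq2. Eef1a1, elongation factor 1A, had 7841, 8258, 8269 and 7934 normalised reads in the WT sgScr libraries, 2803, 2461, 2513 and 1899.5 in Prkcz-/- sgScr and 6039, 5639, 4002 and 3616 in Prkcz-/- sgSox2, so that Prkcz-/- sgSox2 lay between the other groups without overlap.

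Chaperones of single ribosomal proteins were few. Heatr3, which carries Rpl5 to the nucleus, went from 597 ± 81.1 to 148 ± 19.97 and 317 ± 51.1 normalised reads (SD, n = 4) in WT sgScr, Prkcz-/- sgScr and Prkcz-/- sgSox2. Of the 4 genes 3 fell in Prkcz-/- sgScr against WT sgScr (Heatr3, Bccip and Tsr2), 2 rose and 1 fell in Prkcz-/- sgSox2 against Prkcz-/- sgScr, and 1 rose and 2 fell against WT sgScr. Of 6 ribosome quality control genes 2 rose (Pelo and Ascc3) and 3 fell in the first comparison, none in the second (1 rose without Prkcz-/- sgSox2 replicate 1), and 2 rose and 0 fell in the third (1 fell under TMM scaling, with scaling to reads outside ribosomal protein and mitochondrial genes and without Prkcz-/- sgSox2 replicate 1, and 2 under quantile scaling, with edgeR and with DESeq2). Beside the 37.6% and 29.4% of all genes in the first comparison, nothing is read from counts over so few genes.

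In the MYC network 6 of 11 genes rose and 3 fell in Prkcz-/- sgScr against WT sgScr (median 0.44), where 37.6% of all genes rose and 29.4% fell, so no shift of the list is read from the counts. The 3 MYC paralogs differed. Mycn, which passed the minimum level only through WT sgScr, had 114, 65.0, 89.8 and 75.6 normalised reads in WT sgScr and 0 in all 8 other libraries, at least 42.3-fold and 47.4-fold lower in Prkcz-/- sgScr and Prkcz-/- sgSox2 against a floor of 3 reads over a group. Myc had 87.7, 173, 212 and 197 in WT sgScr, 85.4, 64.1, 72.0 and 38.8 in Prkcz-/- sgScr and 55.8, 120.2, 67.5 and 59.3 in Prkcz-/- sgSox2. The WT sgScr values were the highest, save that replicate 1 lay within the range of Prkcz-/- sgSox2, and the 2 knockout groups overlapped. Myc changed by -1.33 ± 0.31 (SE) in Prkcz-/- sgScr and -1.13 ± 0.31 in Prkcz-/- sgSox2 against WT sgScr, and by 0.20 between those groups (limma adjusted p = 0.60). Mycl went the other way, with 3.25, 3.61, 5.99 and 0 in WT sgScr, 36.6, 14.6, 50.1 and 35.6 in Prkcz-/- sgScr and 28.8, 44.5, 26.2 and 34.6 in Prkcz-/- sgSox2. Its WT sgScr values were below all others, on 4 reads in all, and it rose by 3.24 ± 0.54 (SE) and 3.31 ± 0.54 against them (limma adjusted p = 5.3e-05 for the first). Mxd4, an antagonist of MYC at shared sites, rose by 1.75 in the first comparison and changed by -0.70 in Prkcz-/- sgSox2 against Prkcz-/- sgScr. In that comparison 2 genes rose and 4 fell, and against WT sgScr 4 rose and 3 fell.

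Of 20 mTORC1 and TOP regulators 8 rose and 6 fell in Prkcz-/- sgScr against WT sgScr (median 0.21), near the shares of all genes (37.6% and 29.4%), and under TMM scaling 7 rose and 8 fell. Deptor, a component that restrains mTOR, rose by 2.30 ± 0.10 (SE), Sesn2, a leucine sensor that restrains mTORC1, by 2.51 ± 0.16 and Tsc1 by 1.36 ± 0.10. Larp1, which binds TOP messenger RNAs, changed by -0.77 ± 0.11, and Rraga, a GTPase of amino acid sensing, by -0.97 ± 0.12. Between Prkcz-/- sgSox2 and Prkcz-/- sgScr 6 rose and 7 fell, Sesn2 by -1.95 and Deptor by -0.39, and Larp1 rose by 0.96. Against WT sgScr 7 rose and 1, Eif4ebp2, fell. Sesn2 had 64.9, 86.7, 108 and 92.0 normalised reads in the WT sgScr libraries, 489.9, 487, 498 and 511 in Prkcz-/- sgScr and 144, 107, 131 and 133 in Prkcz-/- sgSox2. The Prkcz-/- sgScr values were far above the rest, and Prkcz-/- sgSox2 lay above the WT sgScr range except for replicate 2.

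Among genes outside the family, the profiles most like that of Rplp0 over the 12 libraries were those of Atp5mpl (Pearson's r = 0.99), Nme1, Mrpl52, Acot7 and Prelid1. For the low Rps6 they were Wbp4 (r = 0.96), Polr2b, Ubqln2, Diaph1 and Lrch2. These correlations are over log2 values that share the group differences.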

How the data were processed

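RNA of the 12 libraries was sequenced with the Lexogen QuantSeq 3' kit, per the labels' protocols, and the submitters' processing notes name build GRCm 38. The sources used here do not give the aligner, counter, annotation, use of molecular identifiers or strand setting. The authors deposited a depth-normalised signal per gene, in which each library sums to 10000000. These values are whole multiples of the worth of 1 read (100% of values, tolerance 0.01), so reads were recovered: 43.3 M in all, 2.67 to 5.20 M per library. Of the IDs, 23002 had a symbol and 104 had none. The intervals and floors cover counting error only.

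Genes with a mean of at least 10 were tested on log2(value + 1) with limma 3.58.1 in R 4.3.3 (trend, all 3 groups in 1 fit, Benjamini-Hochberg adjustment over all genes). A fold change on this scale understates the change of low genes. Called means an adjusted p under 0.05. edgeR 4.0.16 (quasi-likelihood) and DESeq2 1.42.0 on the recovered reads, other scalings, filters and pseudocounts, and leaving out each library were tried as alternatives. For departures from the family a median of the members' levels had been planned as the family level. Tested on simulated data it gave many false calls, so the median of deviations was used, a choice made after seeing the data. The median of deviations still falsely called 5.80 to 8.70% of the simulated members that moved with the family.

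The members and lists were chosen with earlier results of these data known. The genes described singly are members fixed by role, those with the greatest and least changes, and the leading departures from the family by adjusted p. Others were added after their values were seen. Annotation is GENCODE vM21, and promoter sequences are from RefSeq. Whether replicate numbers pair the libraries is not stated, and the main fit did not pair them. Deviations from group means correlated at -0.04 to 0.13 for same numbers and -0.22 to 0.13 for different ones. These correlations cannot exclude a shared batch or animal. A few genes are counted in the totals but not reported here singly.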

Additional observations from a re-analysis of the deposited data

Results flagged for a closer look

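In groups of 4, a library was picked out where its gap to the nearest other, over the range of the group, exceeded Dixon's 95% critical value. Of 117 groups examined 12 met this, where chance gives about 1 in 20 for a single group. The groups reuse the same libraries and the members are correlated, so no excess is read from this count. Replicate 1 of Prkcz-/- sgSox2 stood apart by its share of reads in ribosomal protein genes, 5.67%, and by 9453 normalised reads of Rpl11, 7490.3 of Rpl22, 5179 of Rpl3, 3907 of Rpl37a, 16144 of Rpl4 and 17218 of Rplp1. That library also held fewer mitochondrial reads. With mitochondrial genes and Gm42418 left out of the total, its share was 6.12%, against 4.71, 4.82 and 4.87% in the rest of its group. The part of the mitochondrial reads in its high single-gene values was not tested. In Prkcz-/- sgScr replicate 4 stood apart at 5077 for Rpl26, 5319.9 for Rpl7 and 1634 for Rpsa. This replicate had the highest share of ribosomal protein reads in its group, 2.38%, but its lowest values of Rpl7a (269) and Rps2 (1094). In WT sgScr replicate 3 stood apart at 5064 for Rpl7 and replicate 1 at 7614 for Rplp0.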

How the results depend on the processing

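Among single-gene outcomes of the named members, 2851 kept their side of the threshold, 74 lost the call and 24 gained it. In 0 outcomes the sign changed where either value was called. Changes of sign between values that were not called are counted among the 2851. In Prkcz-/- sgScr against WT sgScr the median change was -1.02 under TMM scaling, -1.01 with edgeR and -1.04 with DESeq2. Over all genes the median was 0.12, 0.07 under TMM and -0.05 under quantile scaling. With protein-coding members alone 0 rose in that comparison and 0 fell in Prkcz-/- sgSox2 against Prkcz-/- sgScr, since Rps4l was left out. Between Prkcz-/- sgSox2 and WT sgScr 16 rose and 14 fell with DESeq2, and 15 fell under TMM scaling and with edgeR. With DESeq2 2958 of all genes rose and 3230 fell there, against 3813 and 2783 with limma. Under TMM scaling 3272 of all genes fell there, and with edgeR 3271. The departures from the family in Prkcz-/- sgSox2 against Prkcz-/- sgScr numbered 13 above and 33 below with the median of levels. Over all genes they numbered 460 and 10592. Against WT sgScr 8 lay above with it, among 2347 of all genes, and 11 with only the 2 groups in the fit, among 2816. The causes were not tested. edgeR and DESeq2 were not run for departures.

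Leaving out each library in turn gave, in Prkcz-/- sgScr against WT sgScr, 1 to 1 higher, 74 to 75 lower, 22 to 27 above and 24 to 31 below the family, and medians of -1.01 to -0.95. Between Prkcz-/- sgSox2 and Prkcz-/- sgScr it gave 75 to 77 higher, 1 to 1 lower, 18 to 29 above, 17 to 24 below and medians of 0.94 to 1.14. Against WT sgScr it gave 19 to 26 higher, 6 to 23 lower, 13 to 22 above, 14 to 23 below and medians of -0.01 to 0.15, of which 23 and -0.0097 were those without Prkcz-/- sgSox2 replicate 1, where the median changed sign. Whether the replicate numbers pair the libraries is not stated. A block on them gave 75 lower and 1 higher, then 78 higher and 1 lower, then 26 higher and 9 lower. In the same 3 comparisons it gave departures of 25 above and 29 below, 22 and 19, and 17 and 15. Depth limits Rps6 and Rps3a3 most, where 1 read is worth up to 3.75 of their units.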
